A study of Mus musculus and Ochotona curzoniae and Rattus norvegicus with 18 samples.

Results

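The aminoacyl-tRNA synthetases, the enzymes that attach each amino acid to its transfer RNA, were compared between cultured fibroblasts of the Tibetan pika and of the mouse. Members were taken by gene symbol: 20 enzymes of the cytosol (AARS, CARS, DARS, EPRS, FARSA, FARSB, GARS, HARS, IARS, KARS, LARS, MARS, NARS, QARS, RARS, SARS, TARS, VARS, WARS and YARS) and 16 of the mitochondrion (AARS2, CARS2, EARS2, FARS2, HARS2, IARS2, LARS2, MARS2, NARS2, PARS2, RARS2, SARS2, TARS2, VARS2, WARS2 and YARS2). The 36 genes were found in both species, among 14418 genes whose symbol in the pika tables matched the symbol of a mouse Ensembl identifier. The leading letter gives the amino acid in the 1-letter code, with EPRS carrying the enzymes for glutamate and proline in a single protein, and FARSA and FARSB being the subunits of the enzyme for phenylalanine.

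Each synthetase recognises its own set of transfer RNAs and loads them with a single amino acid, so the family as a whole sets which amino acid is read from each codon. Cytosolic enzymes serve the translation of nuclear messages. For most amino acids a separate nuclear gene, named with a final 2, encodes an enzyme that is imported into mitochondria. These imported enzymes serve the small set of proteins made there. No such gene is listed for glycine, lysine or glutamine, so GARS and KARS stand in the cytosolic list by symbol only. Several cytosolic enzymes are held together in the multisynthetase complex, and many cytosolic synthetase genes are targets of ATF4, a transcription factor induced when amino acids are short.

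The series asks about the binding of EPAS1 and about the RNA of core clock genes in several species. The groups used here were fibroblasts of the Tibetan pika (3 libraries) and of the C57BL/6J mouse (3 libraries), with epidermis as the labelled tissue. Both were grown in DMEM with 10% serum and 1% penicillin and streptomycin at 37 °C under 5% CO2, and RNA was taken at 90% confluency; no treatment, age or sex is given. Rat and rabbit libraries and the ChIP-seq samples were not analysed here. The labels do not state whether the 3 libraries in each group represent different animals or dishes, so p-values measure only the spread between libraries, which may be technical.

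Promoter sequences are given for the genes that share an ATF4 element, since it marks a subset of the cytosolic enzymes. RefSeq windows of the mouse build GRCm38.p6, from 250 bases before to 50 bases after a transcript start, were given for 13 of the 20 cytosolic genes (13 windows) and 14 of the 16 mitochondrial genes (15 windows). The core of the C/EBP-ATF response element, TGATGNAA on either strand (TTNCATCA when read on the other), was found in 5 of the 13 cytosolic windows and in 0 of the 15 mitochondrial windows, against 3.97% of all 32851 windows. The matches were in the promoters of Aars, Gars, Iars, Tars and Yars. For each gene the match nearest to the start of its window is written 5′ to 3′ on the strand of the gene, with the matched letters in capitals.
Yars, chr4:129189896-129189923, plus strand: cgagctcagcTGATGCAAcccgacggga
Gars, chr6:55037961-55037988, plus strand: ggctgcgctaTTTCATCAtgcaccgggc
Aars, chr8:111033841-111033868, plus strand: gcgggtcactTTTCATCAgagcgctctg
Iars, chr13:49682127-49682154, plus strand: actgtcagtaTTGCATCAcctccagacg
Tars, chr15:11399656-11399683, minus strand: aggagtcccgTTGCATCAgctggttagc
The match began 30 bases before the start in Gars and 15 before it in Tars. It began 3 bases after the start in Yars, 7 after it in Iars and 9 after it in Aars. In Yars and Aars this transcript start lies 169 and 6064 bases inside the gene as RefSeq bounds it, so the distances are not from the outermost start of those genes. A match is a run of letters and not a measured binding site.

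The core of the binding site of NRF1, a factor known for genes of the mitochondrion, was searched in the same windows as GCGCA, any base and GCGC in a row, on either strand. It was found in 3 of the 13 cytosolic windows, those of Farsb, Kars and Tars, and in 2 of the 15 mitochondrial windows, those of Iars2 and Mars2, against 4.6% of all windows. The Kars match, in the gene of the only NRF1-matched enzyme that was called in the comparison of species, lay 49 bases before the start.
Kars, chr8:112011384-112011413, minus strand: gcccagcactGCGCCTGCGCagcgagagtc

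Levels are given as rescaled FPKM. FPKM, the unit deposited by the authors, is the number of fragments of a gene relative to the length of its model and to the library total; each library was then rescaled so that the 14418 shared genes sum to 1000000. Totals recovered from the steps of the FPKM values were between 7703576 and 8481030 reads in pika and between 3663102 and 5758950 in mouse. The shared genes held about 87.1% of the deposited FPKM in each pika library, but only 37.0% to 38.3% in the mouse libraries, where a single 57-base row, Gm23935, held 23.9% to 25.1%. Of 9 fibroblast markers 2 were called higher and 3 lower in pika by the test described below. The shares over all tested genes were 28.7% and 23.5%. COL1A1 was at 4787 ± 130.0 and 4811 ± 117 (SD, n = 3) in pika and mouse, and VIM at 4335 ± 64.8 and 5298 ± 138. COL1A2 was at 1238 ± 25.9 and 909 ± 18.9, PDGFRB at 187 ± 4.33 and 387 ± 1.97, and DCN at 269 ± 13.3 and 115 ± 13.8. The remaining markers were low in 1 species or both. COL3A1 was at 22.9 ± 1.44 and 955 ± 16.4, and PDGFRA at 3.47 ± 0.340 and 65.1 ± 4.21. FAP was at 41.7 ± 0.966 and 1.23 ± 0.661, and LUM at 14.8 ± 0.486 and 10.1 ± 0.638. Of 6 keratinocyte markers, 5 (KRT5, KRT14, KRT10, CDH1 and EPCAM) were at 0 in every pika library, and the summed level of the 6 was 0.121 to 0.201 in pika and 47.8 to 53.1 in mouse, most of it DSP. Summed endothelial markers ran from 0.707 to 1.60 in pika, with CDH5 and KDR at 0, and from 32.3 to 39.3 in mouse, where TEK alone was at 31.4 ± 3.94 (SD, n = 3). Summed leukocyte and macrophage markers ran from 14.1 to 15.2 in pika and from 33.9 to 43.2 in mouse. For melanocyte markers the sum ran from 68.1 to 78.5 in pika and from 54.8 to 58.3 in mouse. PMEL was higher in pika, at 31.6 ± 2.80 against 4.97 ± 2.15. MITF, the largest part of both sums, went the other way, from 37.8 to 42.8 in pika and from 47.4 to 52.3 in mouse. TYR, DCT and SOX10 were low in both species. The part of these markers in the differences below was not tested, and in such bulk samples fewer cells of a type and less RNA per cell cannot be told apart.

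Cytosolic synthetases stood several-fold above the mitochondrial ones in both species. The median over the 20 cytosolic genes was between 158.6 and 164.7 in the pika libraries and between 105.9 and 111.4 in the mouse libraries. Over the 16 mitochondrial genes the median was between 17.5 and 19.1 in pika and between 13.6 and 14.7 in mouse. The cytosolic genes lay closer together in pika, where the highest mean level was 4.06-fold the lowest, than in mouse, where it was 14.3-fold. In pika the order ran from GARS (glycine) at 336.7 down to CARS (cysteine) at 82.97, and the upper neighbours GARS, AARS, DARS and EPRS overlapped between libraries from each to the next. In mouse NARS (asparagine) stood alone at the top at 616.6, followed by GARS at 333.0 and TARS (threonine) at 228.1, with FARSA at the bottom at 43.2.

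**Figure D1:**
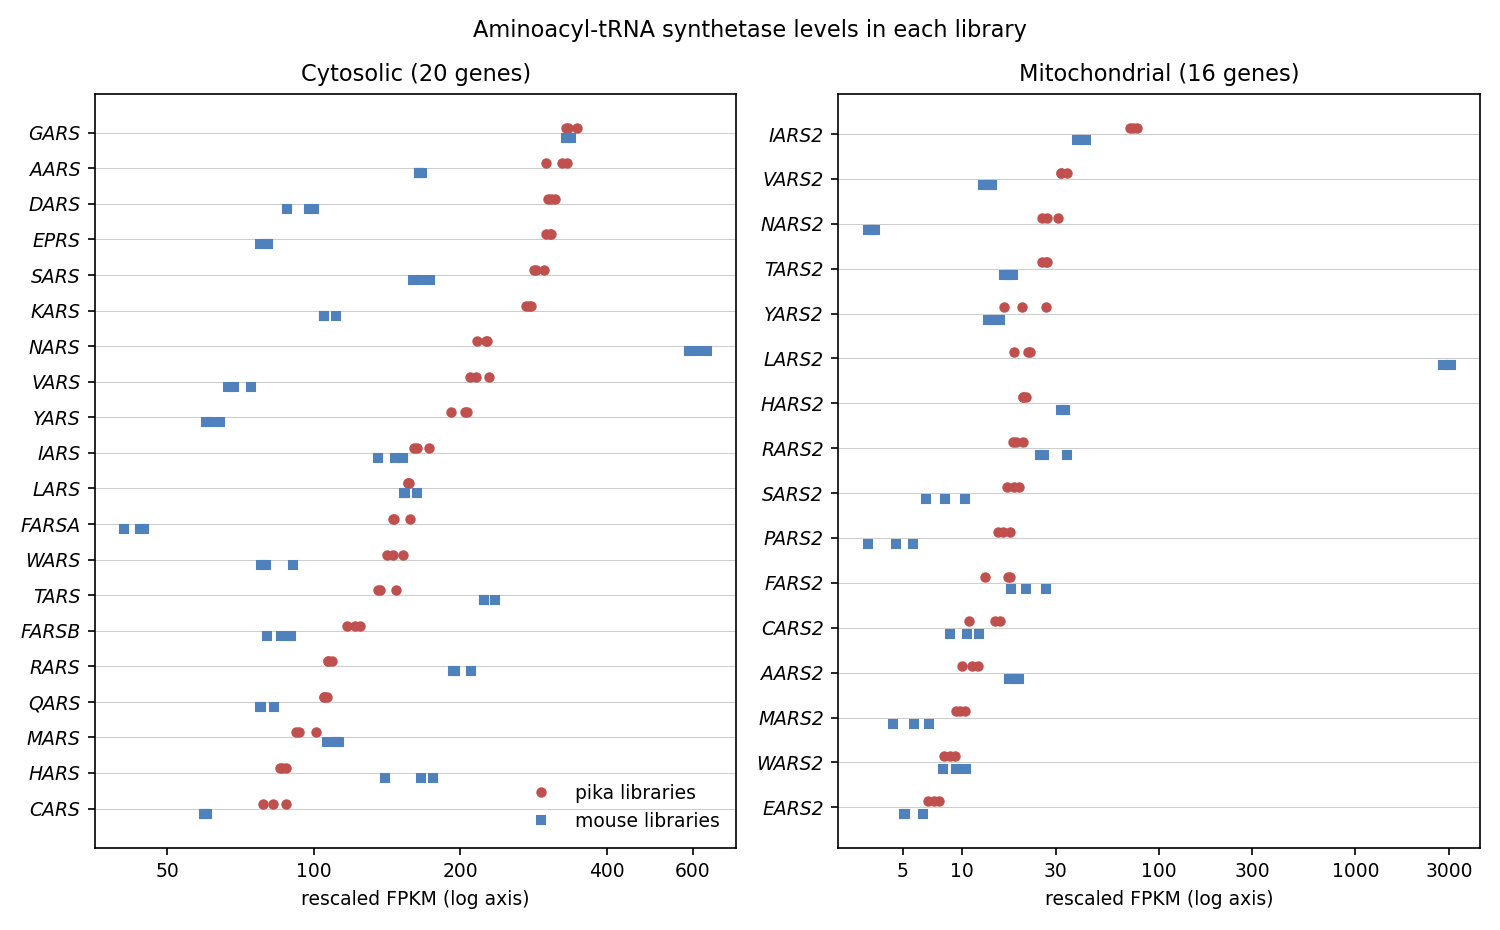
Rescaled FPKM of each synthetase gene (log axis) in the 3 pika libraries (red circles) and the 3 mouse libraries (blue squares), cytosolic genes in the left panel and mitochondrial genes in the right one, ordered by the pika mean. The blue squares of NARS lie between 590.5 and 642.8 and those of LARS2 between 2800 and 3048, far to the right of the pika circles, while the mouse squares of EPRS, FARSA and NARS2 lie far to the left.

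The species were compared with limma's trend method on log2(rescaled FPKM + 1) over 10348 genes with a mean deposited FPKM of at least 1 in either species; all 36 synthetases were among them. A gene was called with an adjusted p under 0.05 and at least a 2-fold difference. In pika, 6 of the 20 cytosolic genes were called higher and 1 lower, and 4 of the 16 mitochondrial genes were called higher and 1 lower. Over all tested genes 28.7% were called higher and 23.5% lower, so the shares called higher were near the background, while the shares called lower, 1 of 20 and 1 of 16, were below it; the difference from the background was not tested. The median log2 difference, pika over mouse, was 0.48 over the cytosolic genes and 0.42 over the mitochondrial ones, beside 0.21 over all tested genes. Without the rescaling the balance of calls moved far toward pika, with 58.3% of all tested genes higher and 10.7% lower, 16 cytosolic genes higher and 0 lower, and 10 mitochondrial genes higher and 1 lower; the median difference of all tested genes was then 1.29.

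**Figure D2:**
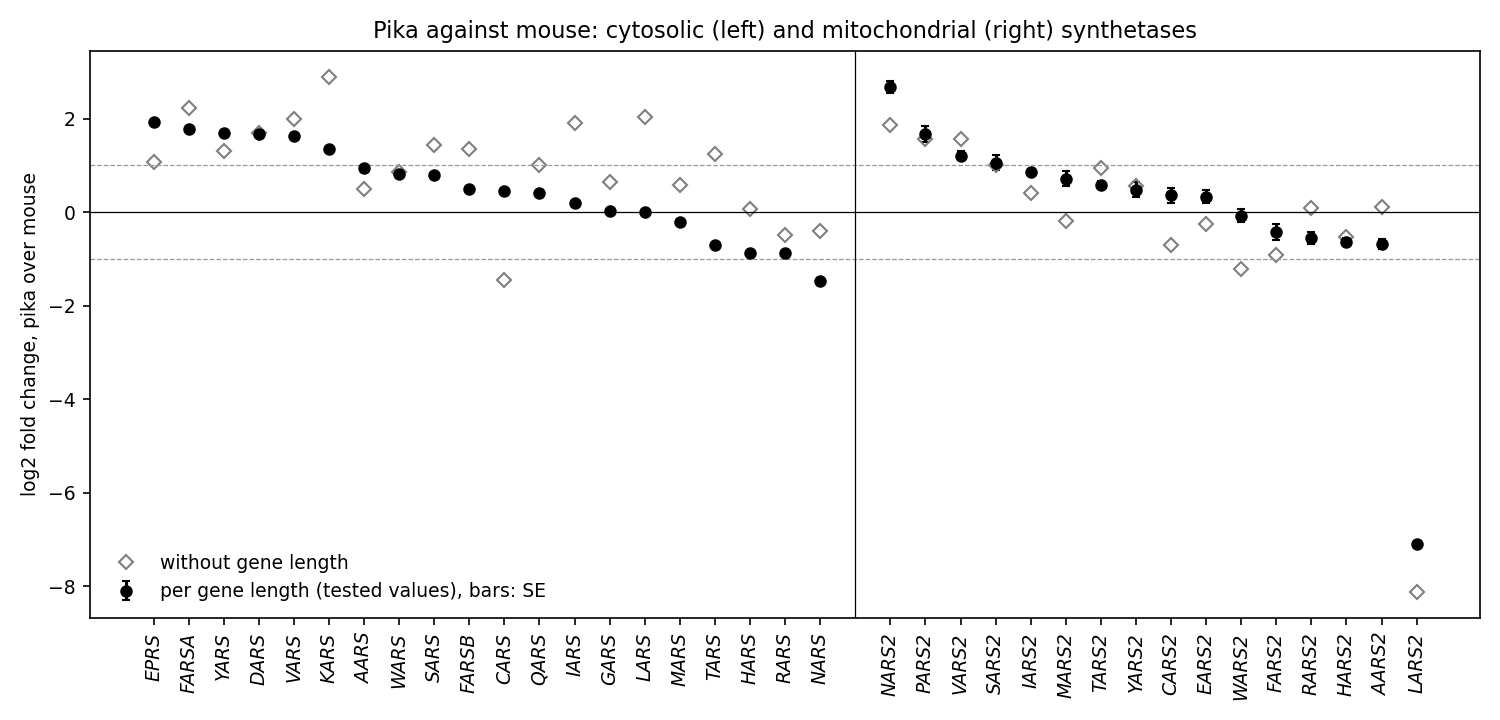
Log2 fold change, pika over mouse, for the 20 cytosolic genes (left of the vertical line) and the 16 mitochondrial genes (right), each sorted by its tested value. Black circles are the tested values on log2(rescaled FPKM + 1) with bars for the standard error, open diamonds are the same comparison without division by gene length, and dashed lines mark 2-fold. LARS2 stands apart at -7.09, and LARS, IARS and TARS have diamonds well above their circles.

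The enzymes of the multisynthetase complex included 3 of the 6 cytosolic genes called higher, DARS, EPRS and KARS. EPRS, the fused enzyme for glutamate and proline (mouse chr1:185361417-185428360, GRCm38.p6), was at 306.9, 299.3 and 305.3 in the pika libraries and at 80.3, 80.5 and 77.6 in the mouse libraries. The groups did not overlap, and the log2 difference was 1.92 ± 0.039 (SE, adjusted p = 1.60e-10, limma), the largest among the cytosolic genes per gene length. Without gene length EPRS was still called, at 1.08, but lay below others such as FARSA at 2.22. DARS, for aspartate, was at 307.1, 302.7 and 313.0 in pika and at 88.3, 100 and 98.05 in mouse. KARS, for lysine, was at 277.0, 272.5 and 279.0 in pika and at 111.1, 105.1 and 105.1 in mouse. Both were higher in every pika library than in any mouse library, by 1.68 ± 0.052 and 1.36 ± 0.040 on the log2 scale (adjusted p = 1.98e-09 and 1.44e-09).

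The remaining 5 enzymes of the complex were not called. LARS, for leucine, was nearly equal, with 157.1, 156.3 and 156.3 in pika and 153.7, 163.0 and 153.3 in mouse, but without division by gene length it was called higher at 2.03 on the log2 scale. IARS, for isoleucine, and QARS, for glutamine, had log2 differences of 0.19 and 0.40, and MARS, for methionine, and RARS, for arginine, had -0.21 and -0.88. Over the 8 enzymes of the complex 3 were called higher and 0 lower, with a median of 0.30, beside 28.7% and 23.5% of all tested genes. Without gene length 6 of the 8 were called higher, with a median of 1.39, beside 25.7% of the genes then tested. Among these, IARS, KARS and LARS had a shorter recovered length in mouse, so their mouse reads may be too small by a whole factor. Of the non-enzyme scaffold proteins of the same complex, AIMP1 and AIMP2 were called higher in pika with 107.5 ± 4.91 against 43.7 ± 4.55 and 165 ± 1.94 against 73.6 ± 7.69 (SD, n = 3), log2 differences of 1.28 and 1.16. Without gene length AIMP1 was at 0.69 and not called, while AIMP2 was called at 1.41. The other one, EEF1E1, had a log2 difference of -0.84 and was not called, and its sign turned without gene length (0.12) and without rescaling (0.42). RefSeq places Mars (as Mars1) and Ddit3 on mouse chromosome 10 with an overlap of 71 bases, and no source used here says whether reads were counted by strand, so reads in the overlap cannot be assigned to either gene.

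Among the enzymes outside the complex, the subunits of phenylalanyl-tRNA synthetase differed from each other. FARSA, the alpha subunit, was at 145.9, 157.8 and 146.4 in pika and at 44.0, 40.8 and 44.9 in mouse, a log2 difference of 1.77 ± 0.059 (adjusted p = 3.28e-09, limma). FARSB, the beta subunit, was at 116.9, 124.3 and 121.8 in pika and at 90.0, 85.6 and 80.3 in mouse, a log2 difference of 0.50 that was not called. In the working enzyme the subunits are present in equal numbers. The ratio of FARSA to FARSB was 1.24 ± 0.034 in pika and 0.508 ± 0.045 in mouse (SD, n = 3), with no overlap between the species. An exact two-sided permutation test of the log2 ratio, which differed by 1.29, gave p = 0.10, the smallest that 3 libraries against 3 can give.

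YARS and VARS, for tyrosine and valine, were the other cytosolic genes called higher. YARS was at 206.4, 204.6 and 191.4 in pika and at 64.1, 61.1 and 60.2 in mouse, and VARS at 228.8, 215.9 and 209.8 in pika and at 74.3, 66.9 and 68.5 in mouse. Neither gene overlapped between species, and the log2 differences were 1.68 ± 0.050 and 1.63 ± 0.055 (adjusted p = 1.61e-09 and 3.79e-09, limma). AARS, for alanine, WARS, for tryptophan, and SARS, for serine, were also above mouse in every pika library, with log2 differences of 0.94, 0.82 and 0.80 that fell short of 2-fold and were not called. CARS, whose pika libraries ran from 78.8 to 87.7 and whose mouse libraries ran from 59.6 to 60.4, had a log2 difference of 0.46 and was not called either. Without gene length it was called lower at -1.45, a value in doubt because the recovered pika length of CARS, 832 bases, may be too small by a whole factor.

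NARS, for asparagine, was the only cytosolic gene called lower in pika. It was at 225.4, 226.4 and 216.0 in pika and at 642.8, 616.6 and 590.5 in mouse. Every mouse library lay above every pika library, and the log2 difference was -1.47 ± 0.039 (adjusted p = 8.64e-10, limma). Without division by gene length it was -0.39 and not called, and it was not called without rescaling either. The recovered lengths of NARS were 2687 bases in pika and 2632 in mouse. They are known only up to a whole factor shared with the reads, so the value without gene length is uncertain. RARS, HARS (histidine) and TARS also lay higher in each mouse library than in any pika library, with log2 differences of -0.88, -0.88 and -0.70, and were not called. Without rescaling these 3 values were 0.40, 0.40 and 0.58, without gene length RARS was at -0.48, HARS at 0.072 and TARS at 1.24, where TARS was called higher, and with median-of-ratios scaling RARS and HARS were called lower, as were 26.2% of all tested genes. GARS overlapped between species, at 348.0, 333.2 and 329.0 in pika and at 337.4, 331.4 and 330.1 in mouse.

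The cytosolic enzymes fall into a pair of structural classes with unrelated catalytic folds. Of the 9 class I enzymes 2 were called higher (VARS and YARS) and 0 lower, with a median log2 difference of 0.40. Of the 10 class II enzymes 3 were called higher (DARS, FARSA and KARS) and 1 lower (NARS), with a median of 0.65; EPRS carries 1 domain of each class and stands in neither list. Of all tested genes 28.7% were called higher and 23.5% lower. Without gene length 5 of the 9 and 6 of the 10 were called higher, beside 25.7%, and the medians were 1.01 and 1.29. These calls included IARS and LARS in class I and KARS and TARS in class II. Their recovered lengths were shorter in mouse, so their mouse reads may be too small by a whole factor. The 5 cytosolic genes with the ATF4 element in the mouse window had log2 differences from -0.70 (TARS) through 0.02 (GARS), 0.19 (IARS) and 0.94 (AARS) to 1.68 (YARS), and 1 of these 5 was called, beside 52.2% of all tested genes called in either direction.

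LARS2, the mitochondrial enzyme for leucine (mouse chr9:123366927-123462675, GRCm38.p6), had the largest difference of the family. It was at 22.3, 18.3 and 21.6 in pika and at 3048, 2800 and 3036 in mouse. The mouse level was 143-fold the pika level, a log2 difference of -7.09 ± 0.070 (adjusted p = 3.48e-12, limma). Among the 14418 shared genes it ranked 21 in mouse and 6797 in pika. The recovered reads were 223, 174 and 225 in pika and 36267, 21444 and 30417 in mouse, which is 0.585% to 0.641% of all mouse reads. The recovered model length was 2658 bases in pika and 11089 in mouse.

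Rows of the mouse tables that lie in ribosomal RNA repeats were also very high. AY036118 was deposited at 27329, 23104 and 20155 FPKM and Gm42418 at 16177, 13737 and 11979 FPKM in the 3 mouse libraries. The part of such sequence in the LARS2 level was not tested. LARS2 alone made up most of the summed mouse level of mitochondrial synthetases, which was 3032 to 3282 with it and 232.5 to 238.2 without it, beside 311.2 to 333.0 in pika without it.

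Apart from LARS2, the mitochondrial enzymes had 4 of 15 called higher and 0 lower, with a median log2 difference of 0.48, beside 28.7% and 23.5% of all tested genes. Without gene length the 15 had a median of 0.11, with 4 called higher and 1 lower, beside 25.7% and 27.2% of the genes then tested. NARS2, for asparagine (mouse chr7:96950839-97064758), was at 27.0, 25.6 and 30.8 in pika and at 3.61, 3.53 and 3.34 in mouse. The pika level was 7.95-fold the mouse level, and the log2 difference was 2.67 ± 0.12 (adjusted p = 2.68e-08, limma). PARS2, for proline, was at 16.2, 15.3 and 17.5 in pika and at 3.31, 5.62 and 4.65 in mouse, a log2 difference of 1.67 ± 0.17 (adjusted p = 9.66e-06). Both rested on few mouse reads, with 27, 17 and 21 for NARS2 and 11, 12 and 13 for PARS2.

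VARS2, for valine, was at 34.3, 31.9 and 32.0 in pika and at 14.2, 13.8 and 12.8 in mouse, a log2 difference of 1.21 ± 0.092 (adjusted p = 1.05e-06, limma). SARS2, for serine, was at 19.4, 16.9 and 18.5 in pika and at 8.16, 6.56 and 10.4 in mouse, a log2 difference of 1.06 ± 0.16 (adjusted p = 0.000151). Neither gene overlapped between species. SARS2 lay close to the 2-fold line and was not called with a pseudocount of 5, with median-of-ratios scaling or without mouse library 2.

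The other 11 mitochondrial genes were not called, with log2 differences between -0.68 (AARS2) and 0.86 (IARS2). IARS2, for isoleucine, was the highest mitochondrial synthetase in pika, at 74.1, 71.2 and 77.5, and the highest after LARS2 in mouse, at 40.2, 38.5 and 43.0. CARS2 and WARS2 overlapped between species, and without gene length WARS2, for tryptophan, was called lower at -1.22. EARS2, for glutamate, was the lowest in pika at 7.18 ± 0.478, and NARS2 the lowest in mouse at 3.49 ± 0.142 (SD, n = 3), where it overlapped PARS2. YARS2, for tyrosine, had the largest SD among the mitochondrial genes in pika, 5.24, with 26.7, 20.3 and 16.3 in the 3 libraries.

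Each of 13 cytosolic enzymes has a single-gene mitochondrial namesake for the same amino acid, and the log2 ratio of the pair was computed within each library. This ratio compares genes within a library and does not depend on the rescaling except through the pseudocount of 1. It was above 0, the cytosolic gene being higher, in all 13 pairs in pika and in 12 of 13 in mouse, the exception being LARS and LARS2. All 3 pika ratios lay above all 3 mouse ratios in 5 pairs (AARS, LARS, VARS, WARS and YARS), all 3 mouse ratios lay above in 5 (HARS, IARS, MARS, NARS and TARS), and the species overlapped in 3 (CARS, RARS and SARS). Over all tested genes, single-gene levels did not overlap in 49.6% with pika above and in 39.4% with mouse above. An exact two-sided permutation test over the 20 splits of 6 libraries gave p = 0.10, the smallest it can give, in the 10 pairs without overlap, which was 0.13 after Benjamini-Hochberg adjustment over the 13 pairs.

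**Figure D3:**
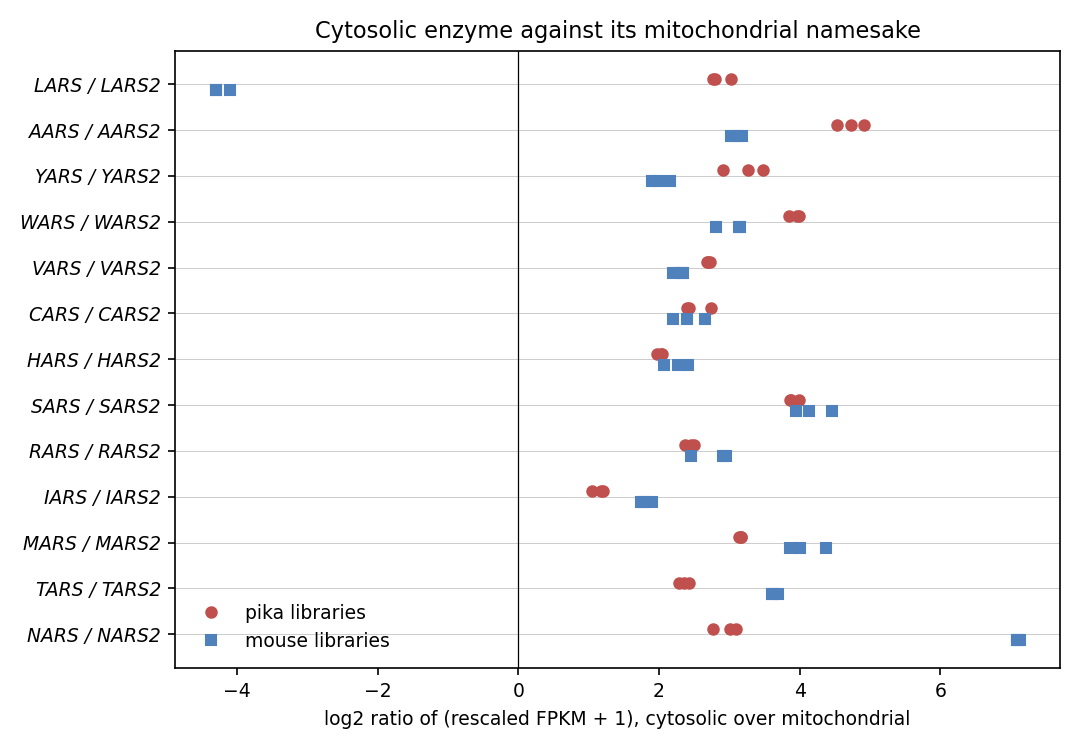
Log2 ratio of (rescaled FPKM + 1) of each cytosolic gene over its mitochondrial namesake, for the 3 pika libraries (red circles) and the 3 mouse libraries (blue squares), sorted by the difference between species. The mouse squares of LARS over LARS2 are the only points left of 0, near -4, and those of NARS over NARS2 lie near 7 with the pika circles near 3.

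The asparagine pair differed most after the leucine pair. The log2 ratio of NARS to NARS2 was 3.02, 3.10 and 2.77 in pika and 7.12, 7.09 and 7.09 in mouse. In mouse NARS was at 176-fold the level of NARS2, and in pika at 8.02-fold, the cytosolic gene being lower and the mitochondrial one higher in pika. For leucine the log2 ratio was 2.77, 3.03 and 2.80 in pika and -4.30, -4.09 and -4.30 in mouse, where LARS itself hardly differed between species. For tyrosine and alanine the ratio was higher in pika by 1.20 and 1.62 on the log2 scale, and for threonine lower by 1.28. Only the valine pair, VARS and VARS2, was called in the same direction for both genes. Without division by gene length the pika ratio lay above in 10 pairs and the mouse ratio in 3. The differences of the CARS, HARS, IARS, MARS, SARS and TARS pairs then changed sign. No share over all tested genes was computed for such ratios. The recovered lengths of IARS, LARS, NARS and TARS were shorter in mouse than in pika, and the pika length of CARS may be too small. Ratios of these pairs without gene length are therefore in doubt.

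On the mouse genome of RefSeq, Hars and Hars2 overlap by 4 bases, and their log2 differences were -0.88 and -0.64. Eprs and Iars2 lie 31997 bases apart on chromosome 1, and their log2 differences were 1.92 and 0.86. The first pair lay higher in mouse and the second higher in pika, in every library for each gene. Of all tested genes, 39.4% had every mouse library above every pika library, and 49.6% the reverse. Without rescaling HARS was at 0.40 and HARS2 at 0.56, and without gene length at 0.072 and -0.53.

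Model length enters every FPKM value, and the lengths could be recovered from the deposited values only up to a shared whole factor of reads and length. The median ratio of mouse to pika length was 1.35 over the cytosolic genes, 2.5 over the mitochondrial ones and 2.25 over 9944 tested genes with both lengths. The extremes among the cytosolic genes were LARS at 0.50 and CARS at 7.91, and 5 genes (IARS, KARS, LARS, NARS and TARS) came out shorter in mouse. Across the 36 genes, which share the same 6 libraries and are not independent, the log2 difference had r = 0.03 and rho = 0.31 with the log2 length ratio, and r = 0.35 and rho = 0.41 across the 35 without LARS2. Over all tested genes the values were r = 0.17 and rho = 0.20.

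**Figure D4:**
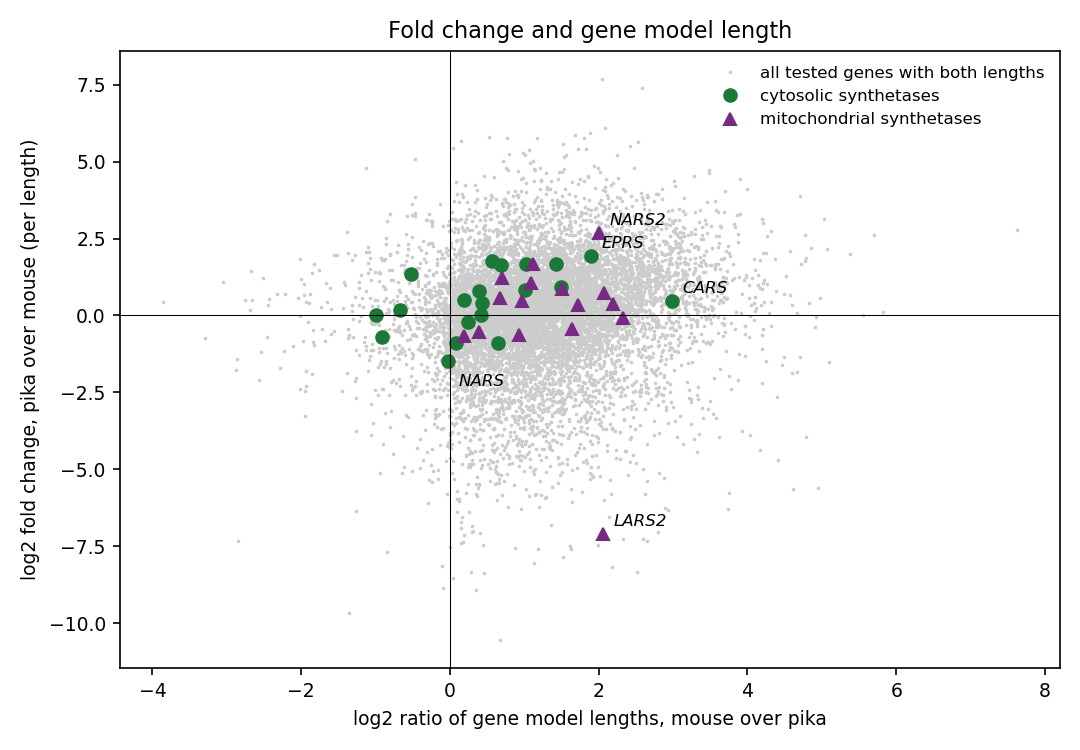
Log2 fold change, pika over mouse, against the log2 ratio of recovered gene model lengths, mouse over pika, for all tested genes with both lengths (grey), cytosolic synthetases (green circles) and mitochondrial synthetases (purple triangles). Most synthetases lie to the right of 0, with longer mouse models, CARS lies furthest right among them, and LARS2 lies far below the rest.

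Without division by gene length 12 cytosolic genes were called higher and 1 lower, and 4 mitochondrial genes higher and 2 lower, beside 25.7% and 27.2% of the 10139 genes tested in that way. The 6 cytosolic and 4 mitochondrial genes called higher per length were all called higher here too, so these 10 calls stood on both scales. Of these, KARS had a shorter recovered length in mouse than in pika, so its value without gene length is in doubt. The 6 added cytosolic genes were FARSB, IARS, LARS, QARS, SARS and TARS. Of these, IARS, LARS and TARS are among the genes with a shorter recovered mouse length, for which reads may be too small by a whole factor. Leaving out the 5 genes with a shorter mouse length, 8 of 15 cytosolic genes were called higher and 1, CARS, lower, for which the recovered pika length is in the same doubt. The 2 mitochondrial genes called lower without gene length were LARS2 and WARS2.

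Partners of the synthetases in translation were described from lists by function. None of the 5 cytosolic elongation factors was called, beside 52.2% of all tested genes called in either direction. EEF1A1, which brings the loaded transfer RNA to the ribosome, had a log2 difference of -0.28. EEF2, which moves the ribosome along, had -0.92, and these values changed sign without rescaling and without gene length. Of 10 mitochondrial translation factors 2 were called higher, the release factor MTRF1L (1.66) and the elongation factor TSFM (1.27), and 1 lower, the initiation factor MTIF3 (-1.13, but 0.06 without rescaling), with a median of 0.11, beside 28.7% and 23.5% of all tested genes. Without gene length TSFM was at 0.83 and not called. The amidotransferase that makes glutaminyl-tRNA in mitochondria, where no separate glutamine enzyme is used, had 1 subunit called higher, QRSL1 (31.7 ± 2.10 against 8.89 ± 0.292, SD, n = 3), and 1 lower, GATB (3.71 ± 0.841 against 9.89 ± 1.22). EARS2, which supplies its substrate, had a log2 difference of 0.33. TRNT1, which adds the CCA end that synthetases load, was called lower at -1.32, and of the 7 tested genes of transfer RNA end processing 1 was called higher, RPP38 at 1.00. GATB and TRNT1 were not called without rescaling, nor was RPP38 with median-of-ratios scaling.

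Genes of the ATF4 and amino acid response had more members called lower than higher in pika. Of 18 genes 6 were called lower in pika and 2 higher, with a median log2 difference of -0.31, beside 23.5% of all tested genes called lower and 28.7% higher. Without rescaling 3 were called lower and 8 higher, beside 10.7% and 58.3% of all tested genes, and the median was 0.88. Without gene length 8 were called lower and 1 higher, beside 27.2% and 25.7% of the genes then tested, and the median was -0.65. The lower ones per length were the stress regulators ATF3 (9.11 ± 1.48 against 130 ± 5.95, SD, n = 3), CEBPB, DDIT3 and SESN2 (-3.71, -1.36, -1.01 and -3.14) and the serine synthesis enzymes PHGDH and PSAT1 (-3.15 and -1.11). Without rescaling DDIT3 was at 0.27, PSAT1 at 0.16 and CEBPB at -0.070, none of them called, and DDIT3 was at -0.28 and not called without gene length. The higher ones were the amino acid transporters SLC1A5 (2.02) and SLC7A11 (1.71), of which SLC7A11 was at -0.029 and not called without gene length. ATF4 itself, named here after its values were seen, was not called, with levels of 483 ± 72.6 (pika) and 540 ± 30.1 (mouse). The asparagine-making enzyme ASNS had a log2 difference of -0.59 and was not called, but was called lower at -1.09 without gene length. Without rescaling ASNS was at 0.67 and ATF4 was called higher at 1.12, and ATF4 was at 0.23 and not called without gene length.

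Libraries of 1 species also differed together in these genes. Pika library 1 was the highest of the pika libraries for 12 of 20 cytosolic synthetases, 7 of 16 mitochondrial ones and 12 of the 18 ATF4 list genes, against 34.4% of all tested genes. Its median deviation from the pika mean was 0.03 (log2) over the cytosolic genes and 0.12 over the ATF4 list. Pika library 3 had -0.03 and -0.14. The 8 cytosolic genes that were not highest in library 1 included DARS, FARSA, KARS and NARS.

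**Figure D5:**
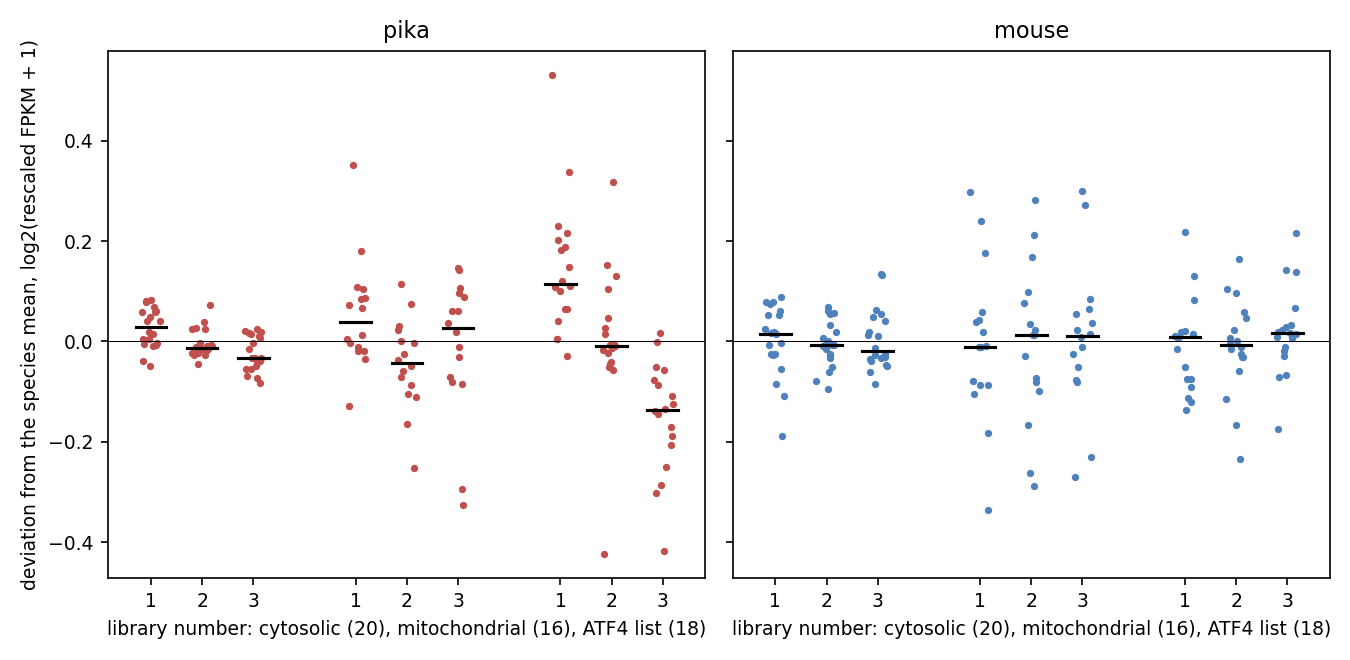
Deviation of each gene from its species mean on the log2(rescaled FPKM + 1) scale, by library, for the 20 cytosolic synthetases, the 16 mitochondrial synthetases and the 18 ATF4 list genes; pika left, mouse right, points for genes and bars for medians. The ATF4 list has its median at 0.12 in pika library 1 and -0.14 in pika library 3, while the cytosolic synthetases stay between -0.03 and 0.03.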

How the data were processed

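RNA-seq tables of 3 pika and 3 mouse libraries were used. The authors deposited 1 FPKM value per gene; CASAVA 1.9, STAR 2.6.1a, featureCounts, edgeR 3.28.1 and the build GRCm38 are named, with no roles, per the submitters' processing notes, and no source used here names the pika annotation. Pika symbols were joined to mouse Ensembl identifiers through a table of mouse symbols (14418 genes). Reads, lengths and totals were recovered from the FPKM steps (tolerance 0.002 reads) and made up 95.7% to 96.2% of the totals; on 14316 simulated rows, 89.4% were recovered without error, and 99.9% when a common whole divisor of reads and length is allowed. Each library was rescaled to 1000000 over joined genes, and log2(value + 1) was tested with limma 3.58.1 (trend, R 4.3.3) over 10348 genes with a mean FPKM of at least 1 in either species, with Benjamini-Hochberg adjustment. On simulated data for this comparison (9712 genes), the calls had the true sign for 100 of 100 genes with a 4-fold change. The same held for 99 of 100 with a 3-fold change, and 6 of 9512 genes simulated as equal were called. Both species were simulated from mouse mean reads with the same length, so errors from differing gene models or annotation were not covered. The spread between simulated libraries was fixed in advance. Genes given a change were drawn only from those with more mouse reads than PARS2, NARS2 and SARS2 had on average. The simulation therefore does not cover calls of genes with so few reads. Any of the 36 members could be named; of every other list, up to 4 called genes with the largest absolute log2 fold change were named; lists with under 2 such genes could add up to 2 of their most highly expressed genes. EEF1E1, ATF4, ASNS, CEBPB, DDIT3, PSAT1, SLC7A11, POLRMT, POLG, TFB2M and the cell type markers named were chosen after their values were seen. The members, lists and promoter motifs were chosen with earlier results of these data known. Alternatives covered the pseudocount, the filter, the scaling, gene length, voom on recovered reads, limma without trend, the replicate number as a block and each library left out; scaling without LARS2 was added after seeing the data. Replicates of a species differed by more than counting noise, with a mean chi-square per gene of 1.19 to 1.53, so no library was a copy of another. FPKM carries no interval for counting error, and no strand setting is given. A further promoter match is not reported here.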

Additional observations from a re-analysis of the deposited data

How the results depend on the processing

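The calls of DARS, EPRS, FARSA, KARS, VARS, YARS, NARS2, PARS2, VARS2 and LARS2 held under every alternative in which they were tested. Without rescaling, 16 cytosolic genes were called higher and 0 lower, 10 mitochondrial genes higher, and 6029 of all tested genes higher and 1106 lower. With median-of-ratios scaling 3 cytosolic genes were called lower (HARS, NARS and RARS), as were 26.2% of all tested genes. Without gene length and with voom on recovered reads 12 cytosolic genes were called higher, and 2 (LARS2 and WARS2) and 3 (with FARS2) mitochondrial genes lower. Of the 10139 genes then tested, 2609 were called higher and 2753 lower without gene length, and 2696 and 2865 with voom. Among the 12, the reads of IARS, KARS, LARS and TARS are in doubt, as their recovered lengths were shorter in mouse. A filter at a mean FPKM of 5 left 8513 genes, 1584 of them called lower, and left out 3 of the 36 synthetases. Pairs with pika above numbered 10, and with mouse above 3, without gene length. Among them the CARS, IARS, LARS, NARS and TARS pairs are in doubt from their recovered lengths. Leaving out each library in turn gave 6 cytosolic genes higher and 1 lower each time, 3 to 4 mitochondrial genes higher and 1 lower, 5 to 6 pairs with pika above and 5 to 7 with mouse above, and 2940 to 2984 of all tested genes higher and 2416 to 2448 lower; the mitochondrial median was 0.30 without pika library 1 and 0.54 without pika library 3. Rescaling to a total without LARS2 changed no call of a synthetase. For each of these, the cause was not tested.

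With the replicate number as a block, 6 cytosolic genes were called higher and 1 lower, 4 mitochondrial genes higher and 1 lower, and 2972 of all tested genes higher and 2433 lower, and the block changed no call of a synthetase. Deviations of same-numbered libraries had correlations of -0.01, 0.05 and 0.01, so the numbers were not taken to pair the libraries. No paired analysis of the pair ratios was made.

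Log2 differences that changed sign without rescaling were those of HARS (0.40), LARS (1.27), MARS (1.05), RARS (0.40), TARS (0.58), AARS2 (0.46), FARS2 (0.71), HARS2 (0.56), RARS2 (0.63), WARS2 (0.87), EEF1A1 (1.01), EEF2 (0.38), MTIF3 (0.064), EEF1E1 (0.42), ATF4 (1.12), ASNS (0.67), DDIT3 (0.27), PSAT1 (0.16), POLRMT (0.34) and POLG (0.82). Without gene length, and then with voom, they were those of CARS (-1.45 and -1.47), HARS (0.072 and 0.087), LARS (2.03 and 2.05), MARS (0.59 and 0.59), TARS (1.24 and 1.25), AARS2 (0.11 and 0.13), CARS2 (-0.71 and -0.75), EARS2 (-0.25 and -0.33), MARS2 (-0.20 and -0.26), RARS2 (0.083 and 0.077), EEF1A1 (0.081 and 0.078), EEF2 (0.035 and 0.035), EEF1E1 (0.12 and 0.11), ATF4 (0.23 and 0.24) and SLC7A11 (-0.029 and -0.041). GARS was at -0.16 with median-of-ratios scaling and ranged from -0.0081 (without pika library 1) to 0.032 with a library left out. LARS ranged from -0.016 to 0.028 with a library left out and was above 0 without pika library 2 (0.0011), pika library 3 (0.0010) or mouse library 2 (0.028); WARS2 ranged from -0.17 to 0.0060, the latter without mouse library 2. Pair differences changed sign without gene length for CARS (-0.74), HARS (0.60), IARS (1.48), MARS (0.78), SARS (0.44) and TARS (0.31), and for CARS also without pika library 3 (-0.0062) or mouse library 2 (-0.0051), with a highest value of 0.22.

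The recovered lengths are known only up to a shared whole factor, so values without gene length are uncertain for single genes. PARS2, NARS2 and SARS2 rest on few mouse reads. With 3 libraries a species, groups were too small to test for single outlying libraries.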

Other observations

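Genes that keep and copy mitochondrial DNA were measured beside the mitochondrial synthetases. Pika was called higher for 2 of the 5 in the list and lower for 0, beside 28.7% called higher over all tested genes. TFAM, which packs and transcribes mitochondrial DNA, was at 123.3, 119.5 and 118.7 in pika and at 24.6, 21.2 and 25.9 in mouse, a log2 difference of 2.29 ± 0.079 (SE), which was 1.30 without gene length. SSBP1, which binds its single strands, was at 126.7, 125.0 and 120.2 in pika and at 11.6, 9.87 and 10.5 in mouse, a log2 difference of 3.43 ± 0.079, which was 1.20 without gene length; both stayed called. The RNA polymerase POLRMT and the DNA polymerase subunit POLG had log2 differences of -0.86 and -0.33 and were not called, and TFB2M had 0.77. TFB2M was called higher at 1.23 without gene length, and POLRMT and POLG turned to 0.34 and 0.82 without rescaling.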
